A study of Homo sapiens with 8 samples.

Results

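The SRSF and HNRNP genes encode the SR proteins and the heterogeneous nuclear ribonucleoproteins (hnRNPs), and their mRNAs were followed here in m6A-seq of melanoma cells with and without knockdown of FTO. Members were all genes whose symbol begins with SRSF and a digit or with HNRNP in the peak lists. They came to 33 genes, 10 SRSF and 23 HNRNP, of 10078 genes with a peak in either list. All 33 had a peak in both lists. They held 56 of the 19072 peaks of the control list and 62 of the 18551 peaks of the knockdown list. Of the 38 protein-coding genes of RefSeq that fit the same symbols, 7 had no peak in either list, namely SRSF9, SRSF12, HNRNPA1L3 and HNRNPCL1 to HNRNPCL4. Absence from a list does not separate an mRNA without enrichment from one with too few reads to be scored.

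SR proteins and hnRNPs are the main families of RNA-binding proteins that decide which exons and splice sites are used. SR proteins bind exons through RNA recognition motifs and recruit the splicing machinery through domains rich in arginine and serine, whereas many hnRNPs act as repressors and also guide the export, stability and translation of mRNA. Both families are tied to m6A, the methylated adenosine of mRNA that FTO can remove. SRSF3 and SRSF10 partner with the nuclear m6A reader YTHDC1, HNRNPC binds uridine stretches that m6A makes accessible, and HNRNPA2B1 has been proposed as a nuclear reader.

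The cells were Mel624, an established human melanoma line with a BRAF mutation, grown in medium with 10% serum, infected with lentivirus and selected with puromycin. The control group expressed the hairpin shNC and the other group the hairpin shFTO. Replicates numbered 2 per group, each with an IP library, in which mRNA fragments were pulled down with an antibody to m6A, and an input library, which gave 8 libraries in all. Both groups thus share the line, the virus and the selection, and no further treatment was given. The labels give 1 hairpin name per group and do not say whether the replicates were separate cultures, and p-values here rest on the spread of these libraries alone.

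A peak is a stretch of the longest RefSeq isoform of a gene where IP reads exceed input reads. Its log2 enrichment score sets the IP reads of the peak, over the median window of the same mRNA, against the same quotient of the input. A score therefore says how strongly a stretch stands out from the rest of its own mRNA. It does not give the amount of the mRNA, and a shift of the median window of an mRNA moves all of its scores. Read counts are not part of the lists, and the depth that a score rests on is therefore unknown. All 7 melanocyte lineage markers (MITF, SOX10, TYR, PMEL, MLANA, DCT and TYRP1) had a peak in both lists, while none of 4 leukocyte and 3 keratinocyte markers and 1 of 3 fibroblast markers, LUM, had one. Across all 12117 pairs of peaks tested, shNC replicate 2 correlated more with shFTO replicate 1 (r = 0.93) than with shNC replicate 1 (r = 0.90), and over the 34 member pairs these values were 0.96 and 0.94.

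The peak lists mark matches to GGACU, the most frequent sequence context of m6A. Of the 33 genes, 15 had a GGACU in at least 1 peak, at 24 positions, and 21 positions in 13 genes could be placed on GENCODE version 44 transcripts of GRCh38. A shift of up to 100 bases between the listed and the GENCODE positions of a gene was allowed. A gene was placed only where all its positions fitted 1 set of sites. The sites below are among those beside which the text describes a peak that was strong, that differed between the lists or that was listed after knockdown only. Each is written as DNA, 5′ to 3′ on the strand of the mRNA, with the motif in capitals and 10 bases on each side, and the coordinates are those of the motif.
SRSF3, CDS, chr6:36596786-36596790, plus strand: cctgtccattGGACTgtaaggttta
SRSF6, 5′UTR, chr20:43457907-43457911, plus strand: ttgtgtggctGGACTcggccgcccc
SRSF7, 5′UTR, chr2:38751345-38751349, minus strand: agtgccgccgGGACTcttggcgggt
SRSF11, CDS, chr1:70221785-70221789, plus strand: gagcagatgcGGACTctcttcggtt
HNRNPA3, 3′UTR, chr2:177219579-177219583, plus strand: ttcttgttcaGGACTgtcatagcca
HNRNPC, 5′UTR, chr14:21269462-21269466, minus strand: aatggggcggGGACTaggccttcgc
HNRNPF, CDS, chr10:43387532-43387536, minus strand: gcggcttcgaGGACTcccatttgga
HNRNPH2, CDS, chrX:101412337-101412341, plus strand: ccggcttagaGGACTcccatttggc
HNRNPLL, 5′UTR, chr2:38602701-38602705, minus strand: ccggcggcgaGGACTggccggcggc
HNRNPUL2, 5′UTR, chr11:62727213-62727217, minus strand: ctgcgcggtcGGACTcggtcgacgg
HNRNPUL2, CDS, chr11:62727093-62727097, minus strand: ggcggggcctGGACTcgcgcggcct
The HNRNPF and HNRNPH2 sites, on different chromosomes, had 22 of 25 bases in common, with an unbroken run of 16 (gaGGACTcccatttgg).

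A GGACU was marked in 25% of the 56 peaks in shNC (95% exact interval 14.4% to 38.4%) and in 29.0% of the 62 peaks in shFTO (18.2% to 41.9%). Over all peaks the shares were 36.3% and 38.1%. The interval of shFTO holds the share of all peaks at 38.1%, and that of shNC holds 36.3%, so a difference from all peaks was not resolved with this many peaks. Among peaks with a mean score of at least 2 the members had a GGACU in 32.4% of 34 in shNC and 47.1% of 34 in shFTO, against 39.2% and 41.4% of all such peaks. The exact 95% intervals of the members, 17.4% to 50.5% in shNC and 29.8% to 64.9% in shFTO, overlap each other and hold those shares. Of the strongest member peaks, those of SRSF10 in the 3′UTR, HNRNPUL1 at the start codon, HNRNPR in the CDS and SRSF11 at the stop codon had no GGACU, and no other motif is given in the lists.

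Member peaks lay at the start codon more often than peaks in general. In shNC 17 of 56 member peaks (30.4%, 95% exact interval 18.8% to 44.1%) were start codon peaks, against 16.6% of all 19072 peaks. In shFTO the share was 33.9% (22.3% to 47.0%) against 16.8%. Both intervals lie above the share of all peaks. The share of 85 other splicing genes, 21.8% in shNC and 20.5% in shFTO, lay inside the members' interval in shNC and below it in shFTO. Conversely, 3′UTR peaks made up 14.3% of member peaks in shNC and 11.3% in shFTO, against 21.8% and 21.2% of all peaks, inside the members' intervals (6.38% to 26.2% and 4.66% to 21.9%). Peaks that began in the first 100 nucleotides of the isoform were 30.4% of the member peaks in shNC and 32.3% in shFTO, against 15.95% and 16.3% of all peaks. Peaks of 1 gene share their mRNA, so these intervals, which count peaks as independent, cover counting error only.

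**Figure D1:**
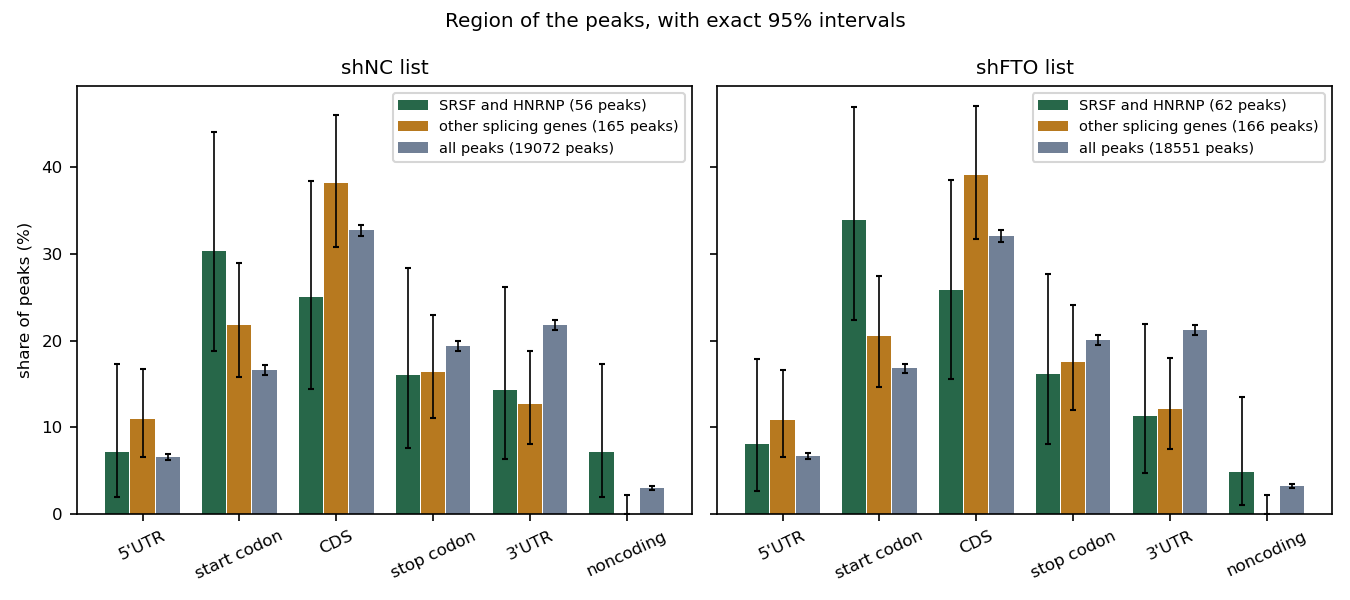
Share of peaks in each region of the mRNA (y axis, percent) for the SRSF and HNRNP genes, for the other splicing genes and for all peaks, in the shNC list and in the shFTO list, with exact 95% intervals of the shares. The start codon bar of the SRSF and HNRNP peaks is at 30.4% in shNC and 33.9% in shFTO, above the 16.6% and 16.8% of all peaks.

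The SR protein mRNAs had fewer listed peaks after knockdown and the HNRNP mRNAs more, but nearly all of the shift was in peaks that directly abut another peak. SRSF genes went from 21 peaks in shNC to 17 in shFTO, and HNRNP genes from 35 to 45. When peaks that directly abut on 1 isoform were counted as 1, SRSF genes had 15 peaks in both lists, and HNRNP genes had 33 and 34. Among peaks with a mean score of at least 2, SRSF genes had 16 and 15 and HNRNP genes 18 and 19. The surplus of HNRNP peaks in shFTO was thus made of low scores, with 17 peaks under a mean score of 2 in shNC and 26 in shFTO. Per gene, 9 of 33 members (27.3%) had more peaks in shFTO, 5 (15.2%) had more in shNC and 19 had the same number. Over the 8693 genes with a peak in both lists, 15.4% had more in shFTO and 21.5% more in shNC. The 9 were HNRNPA0, HNRNPA3, HNRNPC, HNRNPH2, HNRNPK, HNRNPLL, HNRNPR, HNRNPU and HNRNPUL2, and the 5 were SRSF3, SRSF10, SRSF11, HNRNPH1 and the HNRNPUL2-BSCL2 readthrough.

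**Figure D2:**
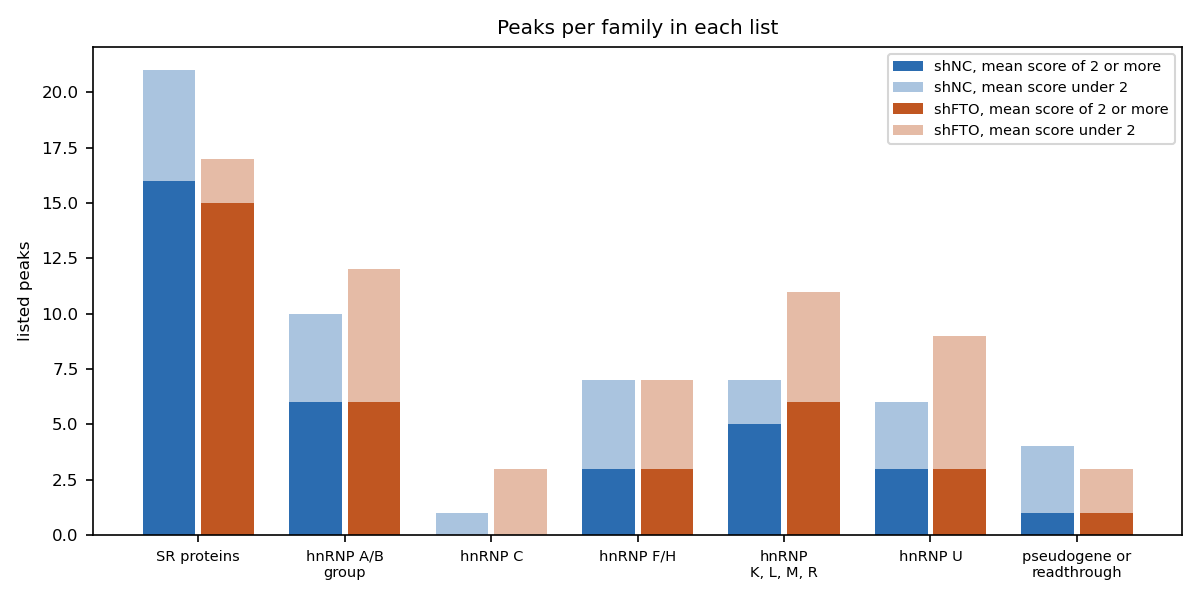
Number of listed peaks (y axis) per family in shNC (blue) and shFTO (orange), with peaks of a mean score of 2 or more in full colour and weaker peaks in pale colour. SR protein genes had 21 and 17 peaks, hnRNP K, L, M and R genes 7 and 11, and hnRNP U genes 6 and 9, while the full-coloured parts differ by at most 1 peak in any family.

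Peaks of the members mostly lay at the same place in both lists. Of the shNC peaks 49 of 56 (87.5%) and of the shFTO peaks 50 of 62 (80.6%) overlapped a peak of the other list by at least 1 nucleotide, against 85.4% and 85.8% of all peaks. The 7 unmatched shNC peaks had mean scores of 0.99 to 2.08 and the 12 unmatched shFTO peaks 0.98 to 2.72. None of the former and 3 of the latter held a GGACU. For 34 pairs, in 28 genes, each peak overlapped only the other, and these could be compared with limma, 2 replicates against 2.

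No member pair differed between the groups at an adjusted p under 0.05, as was the case for 0% of all 12117 pairs (smallest adjusted p = 0.737 among the members and 0.285 among all pairs, limma with Benjamini-Hochberg adjustment). The log2 ratio of shFTO over shNC had a median of -0.03 over the 34 member pairs and -0.01 over all pairs, and 31 of the 34 (91.2%) lay within 0.5 of 0, beside 82.5% of all pairs. At an unadjusted p under 0.05, 1 member pair was higher in shFTO and 1 lower, beside 2.3% and 3.68% of all pairs. Both shFTO scores were above both shNC scores in 5 of 34 pairs, beside 15.7% of all pairs, and below in another 5, beside 17.7%. None of these counts stands out from the background. With 2 against 2 a permutation of 1 peak cannot go below an exact two-sided p of 0.333, so single pairs are judged only through the spread that limma shares among all peaks.

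**Figure D3:**
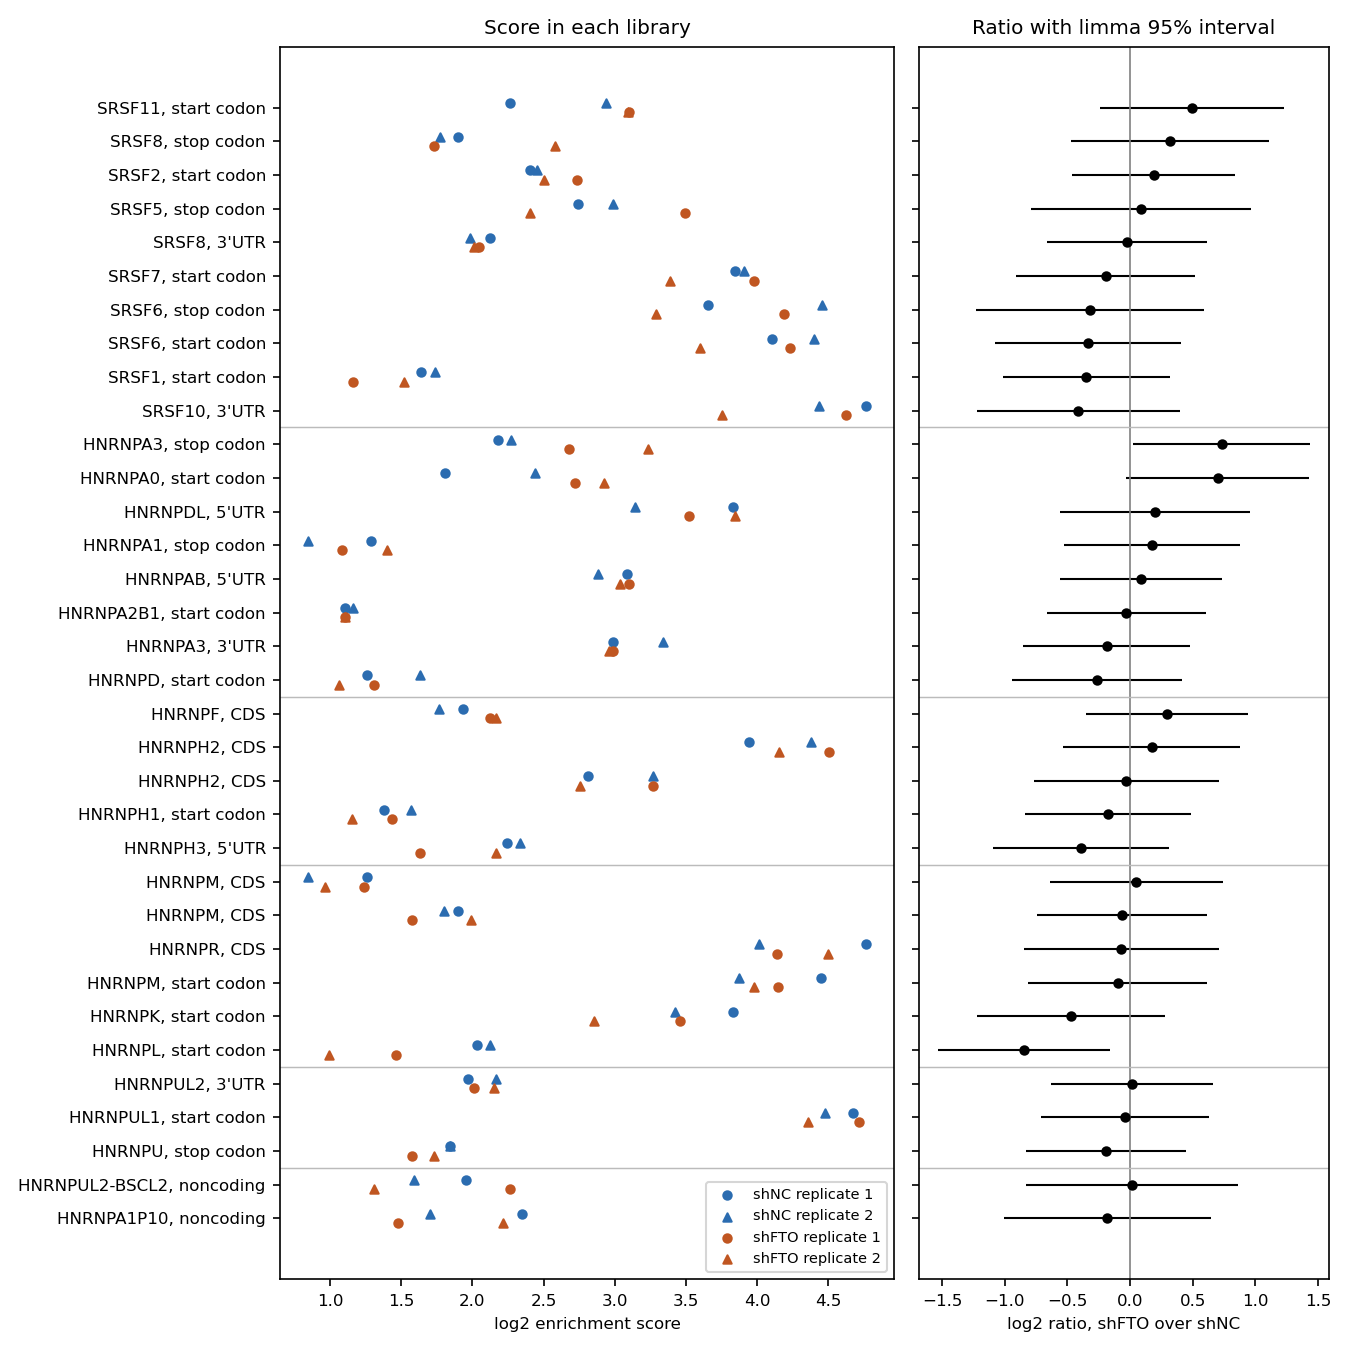
Log2 enrichment score in each of the 4 IP libraries (left, x axis) and log2 ratio of shFTO over shNC with its 95% interval from limma (right, x axis) for the 34 member pairs, grouped by family and ordered by ratio within each. The interval leaves 0 out for HNRNPA3 at the stop codon and HNRNPL at the start codon alone, before adjustment. Regions are those of the shNC list.

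Among the SR proteins, SRSF1, a splicing factor and proto-oncogene (chr17:57989038-58007246), was marked in its 3′UTR in both groups. In shNC the 3′UTR carried abutting peaks at nucleotides 2489 to 2759, with scores of 2.95 and 3.21, and 2760 to 2881, with 2.69 and 3.16. In shFTO they lay at 2487 to 2799, with 3.49 and 3.27, and at 2800 to 2913, with 3.53 and 3.51. All 4 scores in shFTO were above all 4 in shNC, but the border between the peaks had moved, so that no 1-to-1 pair could be formed and the difference was not tested. The start codon peak of SRSF1 scored lower, at 1.64 and 1.74 in shNC and 1.16 and 1.52 in shFTO, without overlap and with a log2 ratio of -0.35 (standard error, SE, 0.29, limma adjusted p = 0.956), which was -0.17 without shFTO replicate 1 and -0.53 without shFTO replicate 2. Of the 80-base stretches of SRSF1, 27.7% also occur in 1 other gene of the annotation. Such shares, here and below, are of the longest GENCODE transcript of a gene. Whether the peak stretches themselves are shared was not counted.

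SRSF10, which can repress splicing when it is dephosphorylated, had the highest SRSF score of shNC, in a 3′UTR peak at nucleotides 4319 to 4557 with 4.77 and 4.43 in shNC and 4.62 and 3.75 in shFTO. The groups overlapped, and the log2 ratio of -0.41 (SE 0.36, limma adjusted p = 0.956) became 0.02 without shFTO replicate 2. Its start codon region had peaks at 74 to 317 (2.23 and 2.10) and 318 to 648 (1.11 and 1.18) in shNC, and 1 peak at 87 to 383 (2.51 and 2.10) in shFTO. The weak stretch of shNC beyond nucleotide 383 was not listed after knockdown.

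SRSF11, an SR-related splicing factor, was marked at both ends of its coding sequence. The GGACU shown above was marked at nucleotide 276, at the downstream edge of the start codon peak (278 in shNC and 279 in shFTO). This peak scored 2.26 and 2.94 in shNC and 3.10 and 3.09 in shFTO. Both shFTO libraries were higher, with a log2 ratio of 0.49 (95% interval -0.24 to 1.23, limma adjusted p = 0.930), which was 0.15 without shNC replicate 1. Toward the stop codon shNC had 3 abutting peaks from nucleotide 1009 to 1577, rising from 1.38 and 2.33 through 2.66 and 3.41 to 4.22 and 4.70. Those at 1009 to 1126 and 1127 to 1301 were CDS peaks, and only the last, at 1302 to 1577, was a stop codon peak. In shFTO a single peak at 1207 to 1577 scored 4.37 and 4.56. These scores lay between those of the strongest shNC peak, and the weakest shNC peak, at 1009 to 1126, had no partner in shFTO.

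SRSF3, the smallest SR protein, had its main peak at the start codon, over the GGACU shown above. It scored 3.28 and 3.996 at nucleotides 2 to 257 in shNC and 3.68 and 2.90 at 18 to 260 in shFTO. The adjoining CDS peak of shNC, at 258 to 370, had the widest replicate gap of the members, 1.23 against 3.13, and overlapped the shFTO peak by its first nucleotides only. SRSF6, which acts on alternative exons, had strong peaks at both ends of its coding sequence. The start codon peak, at nucleotides 1 to 232 in both lists, scored 4.11 and 4.40 in shNC and 4.23 and 3.60 in shFTO. The stop codon peak scored 3.66 and 4.46 against 4.19 and 3.29. In each the groups overlapped, and the log2 ratios were -0.34 and -0.32 with adjusted p = 0.967 and 0.976 (limma). SRSF7, a close relative of SRSF3 with a zinc knuckle, had 1 start codon peak with 3.85 and 3.91 in shNC and 3.98 and 3.39 in shFTO, again overlapping.

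The remaining SRSF genes had scores between 1.6 and 3.5 and no sizeable ratio. SRSF2, which binds exonic enhancers, had a start codon peak at 2.40 and 2.46 in shNC and 2.73 and 2.50 in shFTO. SRSF5 had a stop codon peak at 2.74 and 2.99 against 3.50 and 2.41, and here the shFTO replicates lay farther apart than the groups. SRSF8, a relative of SRSF2, had a stop codon peak at 1.90 and 1.77 against 1.73 and 2.58, whose log2 ratio of 0.32 rested on shFTO replicate 2 and was -0.11 without it. Its 3′UTR peak stayed at 2.12 and 1.98 against 2.04 and 2.01. SRSF4 had abutting CDS and stop codon peaks in both lists, with scores of 1.63 to 2.44 in shNC and 1.64 to 2.25 in shFTO. Of the 10 SRSF pairs, shFTO replicate 1 exceeded shFTO replicate 2 in 8, whereas over all 12117 pairs it did so in 6635.

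**Figure D4:**
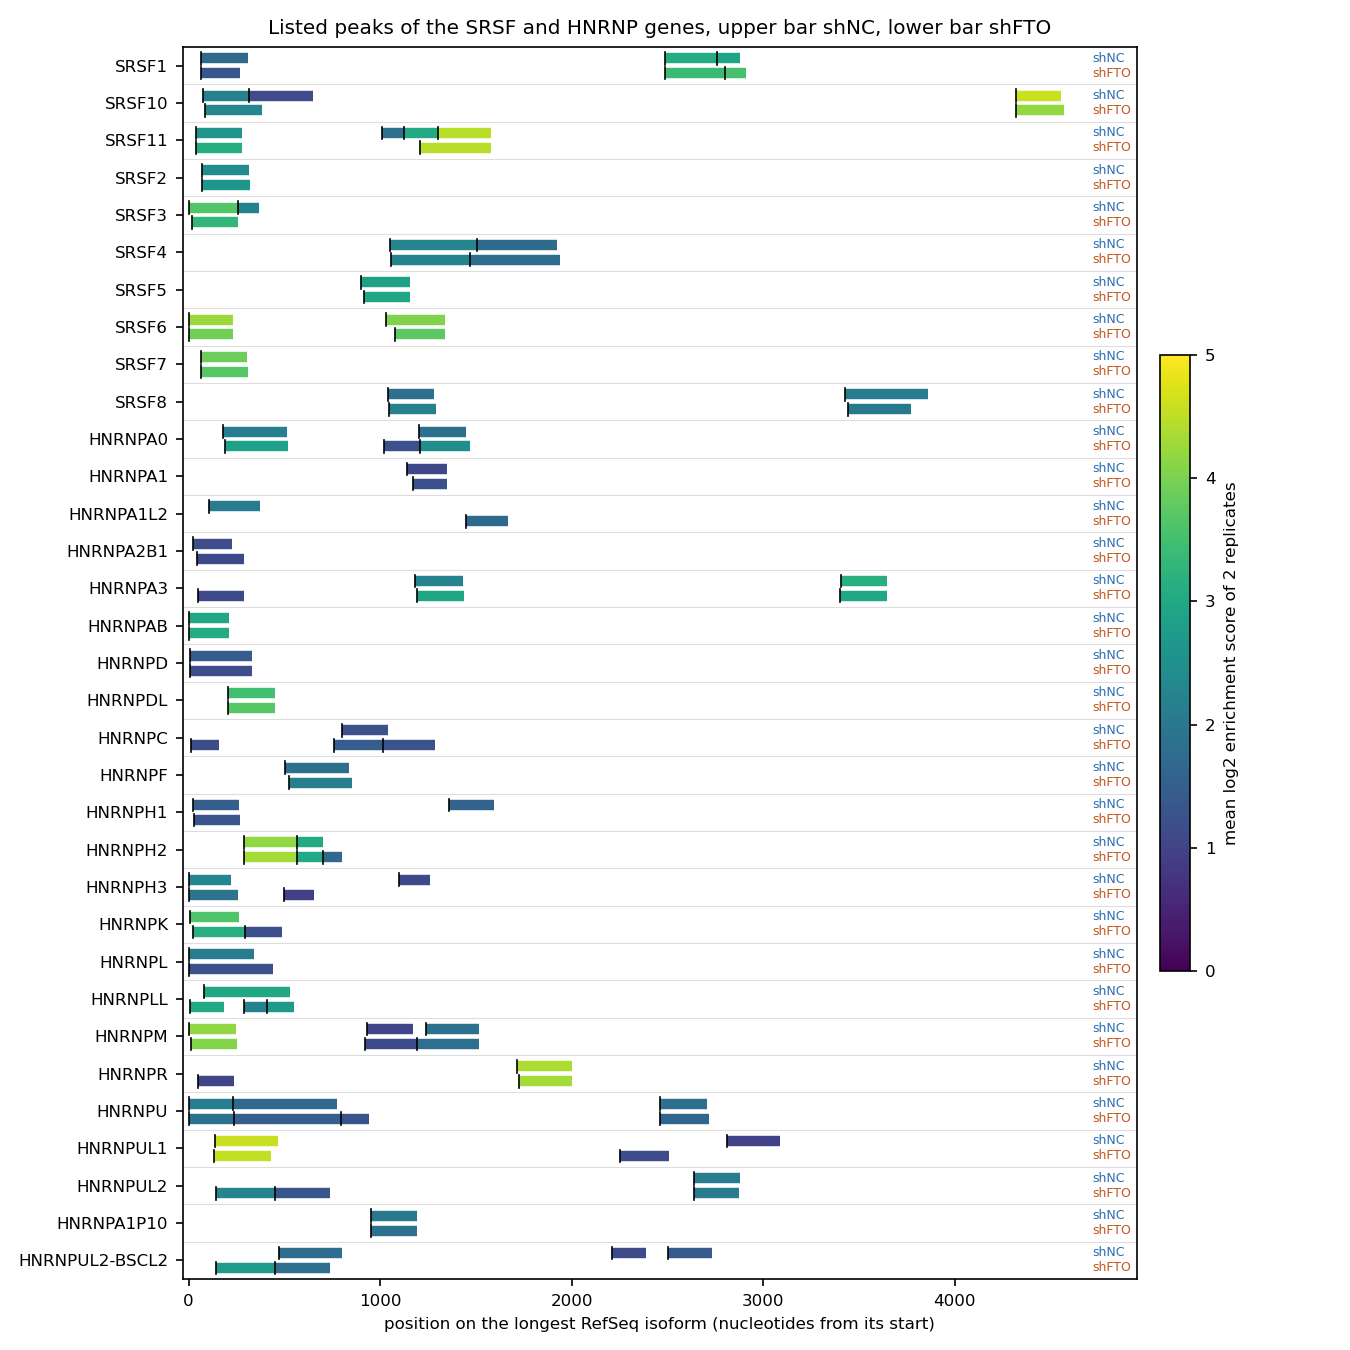
Position of every listed peak of the 33 genes on the longest RefSeq isoform (x axis, nucleotides), with the shNC list as the upper and the shFTO list as the lower bar of each gene, a black tick at the start of each peak, and colour for the mean log2 enrichment score. Most bars lie one above the other, and those of HNRNPLL, HNRNPU, SRSF11 and HNRNPC show stretches that were divided differently in the lists.

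The hnRNP A/B group held the highest ratios of all members. HNRNPA3, which binds the sequences by which some mRNAs are moved in the cytoplasm (chr2:177212794-177223959), had a stop codon peak with scores of 2.18 and 2.27 in shNC and 2.68 and 3.23 in shFTO. Both shFTO libraries were above both shNC libraries, a 1.66-fold higher enrichment at a log2 ratio of 0.73 (95% interval 0.03 to 1.44, limma unadjusted p = 0.044, adjusted p = 0.823). Without shFTO replicate 2 the log2 ratio was 0.45. The shFTO peak, which ended 3 nucleotides farther downstream at 1436, was marked with the 3′UTR GGACU at 1433, and the shNC peak was not. The 3′UTR peak of the same mRNA went the other way within its spread, with 2.99 and 3.34 in shNC and 2.99 and 2.96 in shFTO. A start codon peak at 48 to 290 was listed in shFTO only, at 1.10 and 1.09, near the threshold of 1. Of the 80-base stretches of HNRNPA3, 10.4% also occur in other genes, mainly pseudogenes.

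HNRNPA0, which binds AU-rich elements of short-lived mRNAs (chr5:137745651-137754363), scored 1.81 and 2.44 in shNC and 2.72 and 2.92 in shFTO at its start codon peak. Its shFTO scores were both higher, at a log2 ratio of 0.70 (95% interval -0.03 to 1.43, limma unadjusted p = 0.058, adjusted p = 0.832). Leaving out shNC replicate 1, the lower of the control libraries, brought the ratio to 0.39. In the 3′UTR the peak of shNC, at 1201 to 1449, scored 1.47 and 2.23. The shFTO list had 2.49 and 2.39 at 1210 to 1470, and a weaker abutting peak at 1021 to 1209 with 1.16 and 1.28 that touched the same shNC peak. The 3′UTR scores were therefore higher in both shFTO libraries too, and were not tested.

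The proposed m6A reader HNRNPA2B1 (chr7:26189927-26200746) was itself only weakly marked, with 1 start codon peak. It scored 1.11 and 1.16 in shNC and 1.11 and 1.10 in shFTO. The log2 ratio was -0.03 with a 95% interval of -0.67 to 0.61 (adjusted p = 0.9996, limma), and changes within that interval could not be told from none. HNRNPA1, the best known splicing repressor of the family, had a stop codon peak of similar height, with 1.29 and 0.85 against 1.08 and 1.40. Of the 80-base stretches of HNRNPA1, 26.8% are shared with 20 other genes.

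HNRNPDL, a paralogue of HNRNPD, and HNRNPAB were each marked in the 5′UTR, and HNRNPDL had the highest score of the group. HNRNPDL scored 3.83 and 3.14 in shNC and 3.53 and 3.85 in shFTO over 2 GGACU sites. HNRNPAB scored 3.08 and 2.88 against 3.10 and 3.04 with no GGACU. Neither separated the groups. HNRNPD, also called AUF1 and known for the decay of mRNAs with AU-rich elements, had a weak start codon peak at 1.26 and 1.63 against 1.30 and 1.06. HNRNPA1L2 had a 5′UTR peak in shNC only (1.79 and 2.37) and a CDS peak in shFTO only (1.62 and 1.74). All 1264 of its 80-base stretches occur in other genes. Those under its peaks were not counted apart, so whether its reads can be assigned to it alone was not settled.

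HNRNPC (chr14:21209147-21269442), whose binding m6A can open, had 1 peak in shNC and 3 in shFTO, all weak. The CDS peak of shNC, at nucleotides 801 to 1039, scored 1.32 and 1.19. It overlapped both members of an abutting shFTO pair, at 761 to 1014 with 1.35 and 1.55 and at 1015 to 1288, which reached the stop codon, with 1.17 and 1.41. The third shFTO peak was new to the list. It lay in the 5′UTR at 13 to 160, with scores of 1.01 and 1.27, barely above the threshold of 1 in replicate 1. The GGACU shown above was marked at its upstream edge, at nucleotide 17. As no shNC score is given for this stretch, the difference has no size. The GGACU lies just outside the RefSeq bounds of the gene, on a GENCODE transcript that begins farther upstream.

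The hnRNP F/H proteins bind runs of guanines. HNRNPH2 was the most strongly marked, with abutting CDS peaks whose borders were the same nucleotides in both lists. At 292 to 567 it scored 3.94 and 4.38 in shNC and 4.51 and 4.16 in shFTO. At 568 to 702, which holds its GGACU sites, the scores were 2.81 and 3.27 against 3.27 and 2.76. Both pairs overlapped between the groups. The shFTO list went on with a weaker peak at 703 to 803 (1.90 and 1.44). HNRNPF had 1 CDS peak, at 1.93 and 1.76 against 2.12 and 2.17. The GGACU that it shares with HNRNPH2 was marked at nucleotide 839, near the downstream end of the peak (840 in shNC and 854 in shFTO). Both shFTO scores of HNRNPF were higher, with a log2 ratio of 0.29 (SE 0.28, limma adjusted p = 0.967).

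HNRNPH3, a shorter relative, had a peak labelled 5′UTR in shNC (1 to 223) and start codon in shFTO (4 to 260). The scores were 2.24 and 2.33 in shNC and 1.63 and 2.16 in shFTO, both lower, at a log2 ratio of -0.39 (SE 0.31, limma adjusted p = 0.954). That ratio was -0.12 without shFTO replicate 1 and -0.66 without shFTO replicate 2. It also had a CDS peak of its own in each list, near the threshold, at 1101 to 1260 in shNC (1.002 and 1.16) and at 501 to 656 in shFTO (0.98 and 0.97). HNRNPH1, which also binds runs of guanines, had a start codon peak at 1.38 and 1.57 against 1.43 and 1.16, and a stop codon peak in shNC only (1.34 and 1.82).

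The group of HNRNPK, HNRNPL, HNRNPLL, HNRNPM and HNRNPR held the lowest ratio of all members. HNRNPL, which binds CA repeats (chr19:38836370-38852347), had 1 peak, at the start codon, which scored 2.03 and 2.12 in shNC and 1.46 and 0.995 in shFTO. Both shFTO libraries were lower, at 0.556 of the enrichment of shNC and a log2 ratio of -0.85 (95% interval -1.53 to -0.16, limma unadjusted p = 0.021, adjusted p = 0.737). The ratio stayed between -1.08 and -0.61 when any 1 library was left out. With 1 shFTO score at 0.995, the pair was not in the set with scores of at least 1 in every library. The peak was also wider in shFTO, 1 to 440 against 1 to 340. HNRNPL shares 15.99% of its 80-base stretches with 2 other genes of the annotation.

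HNRNPK, which binds C-rich RNA through KH domains, had a start codon peak at 3.83 and 3.42 in shNC and 3.46 and 2.85 in shFTO, with overlap and a log2 ratio of -0.47 (SE 0.33, limma adjusted p = 0.936). It was -0.17 without shFTO replicate 2, -0.78 without shFTO replicate 1 and -0.27 without shNC replicate 1. The shFTO list added an abutting CDS peak at 295 to 486, with 1.63 and 0.82, of which replicate 2 fell below the threshold of 1. HNRNPR, known for binding RNA in neurons, had the strongest CDS peak of the members in shNC, at 4.76 and 4.01 in shNC and 4.14 and 4.50 in shFTO. Its replicates differed more than the groups did. A start codon peak of HNRNPR was listed in shFTO only, at 1.11 and 0.89.

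HNRNPM, which binds GU-rich RNA, had the same 3 peaks in both lists. The start codon peak scored 4.45 and 3.87 in shNC and 4.15 and 3.98 in shFTO. The CDS peaks scored 1.26 and 0.85 against 1.24 and 0.97, and 1.90 and 1.80 against 1.58 and 1.99. All 3 log2 ratios lay between -0.10 and 0.05. HNRNPLL, which controls the splicing of the CD45 mRNA in lymphocytes, showed the clearest change of division. A single shNC peak at 80 to 531 (2.88 and 3.09) faced 3 shFTO peaks at 8 to 183 (3.50 and 2.49), 292 to 410 (2.55 and 1.90) and 411 to 550 (3.15 and 2.24). In all 3 the shFTO replicate 1 was the higher, and the GGACU shown above lay in the middle one.

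HNRNPU, a nuclear scaffold protein also called SAF-A (chr1:244850297-244864543), had the most peaks in shFTO, 4 against 3 in shNC, all with mean scores between 1.28 and 2.12. Its start codon peak scored 1.99 and 2.25 in shNC and 1.83 and 1.92 in shFTO, and the abutting CDS peak 1.60 and 1.79 against 1.52 and 1.47. Both shFTO scores were lower in each, but the borders crossed and neither was tested. The stop codon peak scored 1.84 and 1.84 against 1.57 and 1.73, again lower in both, at a log2 ratio of -0.19 (SE 0.28, limma adjusted p = 0.985). The fourth peak of shFTO, at 795 to 942, was weak (1.21 and 1.36).

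HNRNPUL1, an HNRNPU relative that takes part in the response to DNA breaks (chr19:41262557-41307787), had the highest mean score of the HNRNP genes in each list, at its start codon. It scored 4.67 and 4.48 in shNC and 4.72 and 4.36 in shFTO, a log2 ratio of -0.04 (95% interval -0.71 to 0.63, limma adjusted p = 0.9996). Weak peaks, a 3′UTR one in shNC (1.04 and 0.93) and a CDS one in shFTO (1.01 and 1.28), had no partner.

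HNRNPUL2, another relative, had the strongest unmatched stretch of a protein-coding member. In shFTO it had a start codon peak at 143 to 453, over a pair of GGACU sites shown above, with scores of 2.36 and 2.18, and an abutting CDS peak at 454 to 739 with 1.37 and 1.29. The shNC list had neither under this gene. The readthrough HNRNPUL2-BSCL2, which begins with the same exons, had nearly the same stretches in shFTO, at 142 to 452 (3.25 and 2.20) and 453 to 738 (2.27 and 1.30). In shNC it had a peak at 473 to 802 (1.95 and 1.59), within the stretch for which HNRNPUL2 had none. Of the readthrough's 80-base stretches, 98.0% occur in other genes, and 45.0% of those of HNRNPUL2 occur in the readthrough, so the peaks of both come largely from the same reads and are not separate evidence. The 3′UTR peak of HNRNPUL2 stayed at 1.97 and 2.16 against 2.01 and 2.15. HNRNPA1P10, a pseudogene of HNRNPA1, had a peak at 2.35 and 1.70 against 1.48 and 2.21, and 75.2% of its stretches occur in other genes.

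The other splicing genes were also marked in both groups. Of 24 genes of the core spliceosome and splice site recognition, 21 had a peak in both lists, with 45 peaks in shNC and 43 in shFTO. The 8 SR protein kinases and import factors had 7 genes in both lists and 17 and 16 peaks. For 17 SR-related proteins these were 15 genes with 45 and 46 peaks, and for 36 other splicing regulators 27 genes with 58 and 61 peaks. None of their 123 testable pairs passed an adjusted p of 0.05 in limma, 2 had an unadjusted p under 0.05, and the medians of the log2 ratios were 0.01, 0.18, -0.06 and -0.06 in the same order. Each of these medians changed sign when some 1 library was left out.

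SRPK1, the main kinase of SR proteins, had the highest ratio of its list, in a CDS peak with 1.93 and 1.91 in shNC and 2.27 and 2.35 in shFTO. Both shFTO scores were higher, at a log2 ratio of 0.39 (adjusted p = 0.941, limma). TNPO3, which imports SR proteins into the nucleus, had the lowest, at 5.05 and 4.97 against 4.80 and 4.58 (log2 ratio -0.32, adjusted p = 0.957, limma). The median of this list was -0.03 without shNC replicate 2. The lowest ratios of all other splicing genes were those of CELF1, a regulator that binds GU-rich RNA, in its 3′UTR (3.08 and 3.05 against 2.41 and 1.97, log2 ratio -0.88, adjusted p = 0.723, limma) and of RBM5, a regulator of apoptosis genes, at its start codon (2.33 and 2.32 against 1.51 and 1.57, log2 ratio -0.79, adjusted p = 0.737, limma). These had unadjusted p = 0.017 and 0.021 (limma). The highest ratio of these lists was that of ILF2, in its 5′UTR, with 2.62 and 2.08 against 2.78 and 3.26 (log2 ratio 0.66, adjusted p = 0.858, limma).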

How the data were processed

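m6A-seq peak lists of Mel624 cells with shNC or shFTO were used, 2 replicates per group. The authors trimmed reads with cutadapt, aligned them to hg38 with TopHat2 version 2.0.14, called peaks in sliding windows on the longest RefSeq isoform by a Fisher exact test, with a floor of 1 on the log2 enrichment score, and merged positive windows. The floor was set on windows, and 733 listed peaks in shNC and 819 in shFTO scored under 1 in a replicate. The deposited values are log2 enrichment scores per replicate. In these scores the reads of each library are divided by its own median window of the same mRNA. No separate scaling to library size is described. The step from replicates to 1 list per group is not given in those sources.

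From there, peaks of both lists that shared at least 1 nucleotide with exactly 1 peak of the other were paired, and 12117 pairs were tested with limma 3.58.1 (lmFit and eBayes, group as the only term) in R 4.3.3 with Benjamini-Hochberg adjustment, after a test on simulated data. The rest was done in Python 3.11.15 (pandas 2.3.3, numpy 2.4.6, matplotlib 3.10.9, scipy 1.17.1). Gene positions came from RefSeq on GRCh38, and GGACU sites and shared stretches of 80 bases from GENCODE version 44. Shares carry exact Clopper-Pearson intervals at 95%. The members, the families and the lists of other splicing genes were chosen with earlier results of these data known. By rule, values were due for SRSF1, HNRNPA2B1 and HNRNPC, the 8 genes of highest score, the 5 highest and 5 lowest ratios and pairs at an unadjusted p under 0.05, and every other member was given too. Other splicing genes were named from the 2 highest and 2 lowest ratios of each list. Alternatives were other definitions of a shared peak, score floors, 1 pair per gene, centring, a replicate block, leaving out libraries and, chosen after seeing the data, a crossed block and counts without copies. Input and FTO mRNA levels were not analysed here. Some GGACU sites are not reported here.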

Additional observations from a re-analysis of the deposited data

How the results depend on the processing

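No member pair and no pair of the other splicing genes passed an adjusted p of 0.05 under any of the 13 alternatives run for each set, of which the crossed pairing of replicates and, for the other genes, the best overlapping partner were chosen after seeing the data (smallest adjusted p 0.207 for members and 0.147 for the others, limma). Over all 12117 pairs the count of changed peaks stayed at 0 except on leaving out 1 library, with 0 to 11, and in the crossed pairing, with 13. Deviations of same-numbered libraries were negatively correlated (r = -0.27 over all pairs and -0.26 over the 34 member pairs). The labels do not say whether a number marks a shared batch, and the cause was not tested. A fit with the replicate block called 0 pairs, with the member median at -0.03. That median lay between -0.10 and 0.0040 when any 1 library was left out. Without shFTO replicate 2 the log2 ratio turned to 0.023 for the SRSF10 3′UTR peak and to -0.11 for the SRSF8 stop codon peak, with ranges over the left-out libraries of -0.85 to 0.023 and -0.11 to 0.74. The median of the SR protein kinases and import factors was 0.038 at a mean score of at least 2 and -0.029 to 0.25 when a library was left out. The medians of the other lists also changed sign on leaving out 1 library, with -0.14 to 0.10 for the core spliceosome, -0.13 to 0.011 for SR-related proteins and -0.21 to 0.017 for other regulators. At a mean score of at least 2 the members had 34 peaks in shNC and 34 in shFTO. GGACU was then marked in 32.4% of them in shNC and 47.1% in shFTO, with 95% exact intervals that overlap (17.4% to 50.5% and 29.8% to 64.9%). Counted only within 50 bases of the centre, GGACU was marked in 8.93% of member peaks in shNC and 11.3% in shFTO, against 18.2% and 18.9% of all peaks. The exact 95% intervals of the members, 2.96% to 19.6% in shNC and 4.66% to 21.9% in shFTO, hold those shares. The cause of the changes between alternatives was not tested. Scores carry no depth, so the precision of single peaks cannot be given, and weak peaks near the threshold of 1 may be listed or missed by small differences.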
